A study of Mus musculus with 12 samples.

Results

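The minichromosome maintenance (MCM) genes named in the annotation of the arrays as Mcm2, Mcm3, Mcm4, Mcm5, Mcm6, Mcm7, Mcm8 and Mcm10 were described in livers of Socs2-null and wildtype mice before and after removal of liver tissue. The members were the probe sets annotated to 1 of these genes alone. There were 14 such probe sets for 8 genes, among 28898 probe sets with a single gene and 17097 genes in all. Each gene was represented by its brightest probe set, and every other probe set was examined beside it.

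Adult Socs2-null mice, maintained on a C57BL/6 background, and adult wildtype C57BL/6 mice were studied at 0 h, at 24 h and at 36 h after 2/3 hepatectomy. Mice at 0 h had no operation, and no sham-operated group was among these samples. Each group had 2 arrays, and each array held liver RNA pooled from 3 animals, for 12 arrays in all. SOCS2 is a suppressor of cytokine signalling best known as a brake on growth hormone signalling. The tests below therefore measured the spread between pools, not between single animals.

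Mcm2 to Mcm7 encode the subunits of the hexameric ring that unwinds DNA at replication forks. The origin recognition complex, with Cdc6 and Cdt1, loads this ring on DNA during G1, a step called licensing. Cdc45 and the GINS complex later join it to form the active helicase, and Mcm10 acts at that activation step. Hepatocytes of an adult liver are mostly quiescent and enter the cell cycle together after partial hepatectomy, and E2F transcription factors are known to drive MCM genes as cells approach S phase.

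The promoters of these genes are shown first. Mcm2 to Mcm7 moved together after hepatectomy while the brightest Mcm10 probe set moved the other way. Whether the promoter letters bear on these movements was not tested. RefSeq promoter sequences of GRCm38.p6 (250 bases before to 50 bases after the start that the RefSeq table uses, 5′ to 3′ on the gene's strand) were matched by symbol for 7 of the 8 genes, and Mcm4 is named only. That start is the outer end of the gene as given below for Mcm2, Mcm3, Mcm6 and Mcm10. It lies inside the gene by 228 bases in the Mcm7 window printed here, 41 bases for Mcm5 and 4 bases for Mcm8, so those positions are from that start and not from the end of the gene. They were searched on both strands for the E2F motif in the letters TTTCCCGC, TTTGGCGC, TTTCGCGC and TTTGCCGC. Capitals mark these matches. The Mcm6 promoter is chr1:128359656-128359955 (minus strand), Mcm5 chr8:75109259-75109558 (plus strand), Mcm7 chr5:138171834-138172133 (minus strand), Mcm3 chr1:20820263-20820562 (minus strand), Mcm2 chr6:88898731-88899030 (minus strand) and Mcm10 chr2:5012742-5013041 (minus strand).
Mcm6: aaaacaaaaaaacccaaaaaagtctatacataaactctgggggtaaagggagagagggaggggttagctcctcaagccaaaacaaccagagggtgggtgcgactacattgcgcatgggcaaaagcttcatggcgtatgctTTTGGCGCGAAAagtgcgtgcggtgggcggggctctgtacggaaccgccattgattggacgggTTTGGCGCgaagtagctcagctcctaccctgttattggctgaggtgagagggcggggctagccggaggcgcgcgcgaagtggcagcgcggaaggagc
Mcm5: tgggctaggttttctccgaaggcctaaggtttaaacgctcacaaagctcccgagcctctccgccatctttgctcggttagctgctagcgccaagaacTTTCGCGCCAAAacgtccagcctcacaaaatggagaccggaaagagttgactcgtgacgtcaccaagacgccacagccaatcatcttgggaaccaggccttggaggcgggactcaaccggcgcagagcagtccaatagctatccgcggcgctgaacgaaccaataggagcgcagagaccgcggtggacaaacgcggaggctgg
Mcm7: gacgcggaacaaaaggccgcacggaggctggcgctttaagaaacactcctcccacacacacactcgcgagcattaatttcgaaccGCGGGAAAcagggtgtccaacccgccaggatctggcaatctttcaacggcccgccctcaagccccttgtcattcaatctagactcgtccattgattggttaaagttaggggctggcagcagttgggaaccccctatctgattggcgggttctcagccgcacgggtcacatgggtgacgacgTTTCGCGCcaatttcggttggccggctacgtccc
Mcm3: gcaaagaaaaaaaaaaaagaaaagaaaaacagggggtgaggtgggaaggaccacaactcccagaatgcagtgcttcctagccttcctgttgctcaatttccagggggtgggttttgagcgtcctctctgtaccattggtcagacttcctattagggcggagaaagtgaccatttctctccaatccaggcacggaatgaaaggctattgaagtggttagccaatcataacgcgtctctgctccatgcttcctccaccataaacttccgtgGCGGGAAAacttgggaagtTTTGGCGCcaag
Mcm2: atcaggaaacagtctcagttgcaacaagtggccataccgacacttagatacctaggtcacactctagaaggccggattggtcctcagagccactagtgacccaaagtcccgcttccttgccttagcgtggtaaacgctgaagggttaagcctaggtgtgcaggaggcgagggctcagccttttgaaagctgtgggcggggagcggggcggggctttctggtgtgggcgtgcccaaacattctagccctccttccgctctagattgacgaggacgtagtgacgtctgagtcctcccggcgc
Mcm10: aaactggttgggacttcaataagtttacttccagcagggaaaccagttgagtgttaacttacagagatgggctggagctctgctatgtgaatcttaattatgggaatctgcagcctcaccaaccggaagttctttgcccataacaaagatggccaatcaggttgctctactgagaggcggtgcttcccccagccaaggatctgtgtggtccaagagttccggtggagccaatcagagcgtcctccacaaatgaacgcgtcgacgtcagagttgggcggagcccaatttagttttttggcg

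The motif was found in 5 of the 7 genes with a promoter sequence, namely Mcm3, Mcm5, Mcm6, Mcm7 and Mcm8. Over all RefSeq promoters of this length it occurred in 744 of 32851 (2.26%), and in 704 of 27025 genes (2.6%). In the Mcm6 promoter, a match on the gene's strand that began at position -110 from the start overlapped one on the opposite strand, together spelling TTTGGCGCGAAA, and another began at position -47. A like overlapping pair, TTTCGCGCCAAA, lay in the Mcm5 promoter, where its first match began at position -153 from the start. Mcm3 held both of its matches after the start, at 20 and 39 bases. Mcm7 held one match at position -165 and another 17 bases after the start, in the one of its 2 listed promoters that is printed. Mcm8 held a single match, 40 bases after the start. No full match lay in the windows of Mcm2 and Mcm10. The Mcm10 window ends in TTTGGCG, all but the last letter of the searched TTTGGCGC, so a match across its edge was not tested. A match is a run of letters and not a measured binding site, and no binding was measured here.

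The genes lie on chromosome 1 (Mcm3, 20802966 to 20820312, and Mcm6, 128331575 to 128359705), chromosome 2 (Mcm10, 4990724 to 5012791, and Mcm8, 132816137 to 132844197), chromosome 5 (Mcm7, 138164583 to 138172111), chromosome 6 (Mcm2, 88883474 to 88898780), chromosome 8 (Mcm5, 75109468 to 75128439) and chromosome 16 (Mcm4, 15623897 to 15637400) of GRCm38.p6. Of the 8 genes, only Mcm7 overlaps other annotated genes, namely the miRNA genes Mir25, Mir93 and Mir106b and, over 91 bases, the protein-coding gene Ap4m1. The array files give no probe coordinates, so the part of each gene that a probe set reads is not analysed here.

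Several facts of the arrays bear on every value below. The brightest Socs2 probe set lay between 23.1 and 29.5 in the Socs2-null arrays and between 116.4 and 546 in the wildtype arrays, so its signal followed the genotype labels. A second of the 4 Socs2 probe sets also separated the genotypes, and the others did not. The brightest of 17 tag control probe sets, which are designed against no mouse transcript, lay between 33 and 45 on each array and was taken as the background limit. Levels of 18 hybridization controls, spiked into each sample before hybridization, moved with time: their mean log2 intensity was 9.86 to 9.975 at 0 h, 9.341 to 9.897 at 24 h and 9.015 to 9.225 at 36 h. The 7 hepatocyte markers, Alb and Ttr among them, had a summed intensity of 62614 to 67363 on the 8 arrays after hepatectomy, all below the 71146 to 72580 at 0 h. One by one, 1 (14.3%) was called lower at 24 h in each genotype, against 13.5% of all genes in Socs2-null and 15.6% in wildtype livers. At 36 h 3 (42.9%) were called lower in wildtype livers, against 9.5%. In Socs2-null livers 1 was called lower and 1 higher (14.3% each) at 36 h, against 10.1% and 9.84% of all genes. Of 52 listed markers of 8 liver and blood cell types 48 were measured. In Socs2-null livers 3 rose and 10 fell at 24 h and 5 rose and 10 fell at 36 h, and in wildtype livers 2 rose and 12 fell at 24 h and 4 rose and 12 fell at 36 h, each against 0 h. Those that fell were 20.8% of the measured markers in Socs2-null livers at both times, where 13.5% and 10.1% of all genes were called lower, and 25% in wildtype livers at both times, where 15.6% and 9.5% were. Those that rose were 6.2% and 10.4% in Socs2-null livers, where 10.8% and 9.84% of all genes were called higher. In wildtype livers they were 4.2% and 8.3%, against 10.2% and 5.69% of all genes. The 4 measured erythroid markers summed to 453.2 to 669.3 on the arrays after hepatectomy, against 1245 to 1484 at 0 h. The 4 measured neutrophil markers summed to 303.2 to 485.5 on 7 of the arrays after hepatectomy and to 1719 on the other, replicate 2 of Socs2-null 24 h, against 222.5 to 269.2 at 0 h. Of these 4, 1 was called higher and 1 lower in Socs2-null livers at 24 h, 2 lower in wildtype livers at 24 h, and 0 in either genotype at 36 h. A single marker is 25% of them, where 10.8% of all genes were called higher and 13.5% lower in Socs2-null livers at 24 h. The 2 in wildtype livers are 50%, against 15.6% of all genes. The part of these shifts in the MCM values was not tested.

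All 6 genes of the helicase ring, Mcm2 to Mcm7, were higher at 24 h after hepatectomy than at 0 h in Socs2-null and in wildtype livers, and all of these rises passed the test. At 36 h all 6 were again higher than at 0 h in both genotypes. These rises passed the test for 6 of 6 in Socs2-null livers and 4 of 6 in wildtype livers, where Mcm5 and Mcm7 missed the threshold. Of all genes, 10.8% and 10.2% were called higher at 24 h in Socs2-null and wildtype livers, and 9.84% and 5.69% at 36 h. No array of these 6 genes after hepatectomy overlapped the arrays of its genotype at 0 h, and the same separation upwards held for 27.5% of all genes at 24 h and 28.4% at 36 h in Socs2-null livers and for 26.9% and 24.3% in wildtype livers. Mcm6 had the largest fitted rise among the ring genes, 5.56-fold in Socs2-null and 5.24-fold in wildtype livers at 24 h. The rises of Mcm3, of Mcm5 in Socs2-null livers and of Mcm2 in wildtype livers are known only as lower bounds, because their arrays at 0 h were under background, so they cannot be ranked against Mcm6. An adjusted p printed beside a bound belongs to the fitted change, which uses the values under background. It does not test the size of the bound. The brightest Mcm10 probe set fell in all 4 of these comparisons, with a log2 change of -3.27 at 36 h in Socs2-null livers. Mcm8 passed in none of them. Changes are differences of log2(intensity + 16) from a limma model over all genes, folds are on that scale, and a call is a Benjamini-Hochberg adjusted p under 0.05 over 17097 genes. In bulk liver a change in the number of cells of a type and a change in RNA per cell cannot be told apart.

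**Figure D1:**
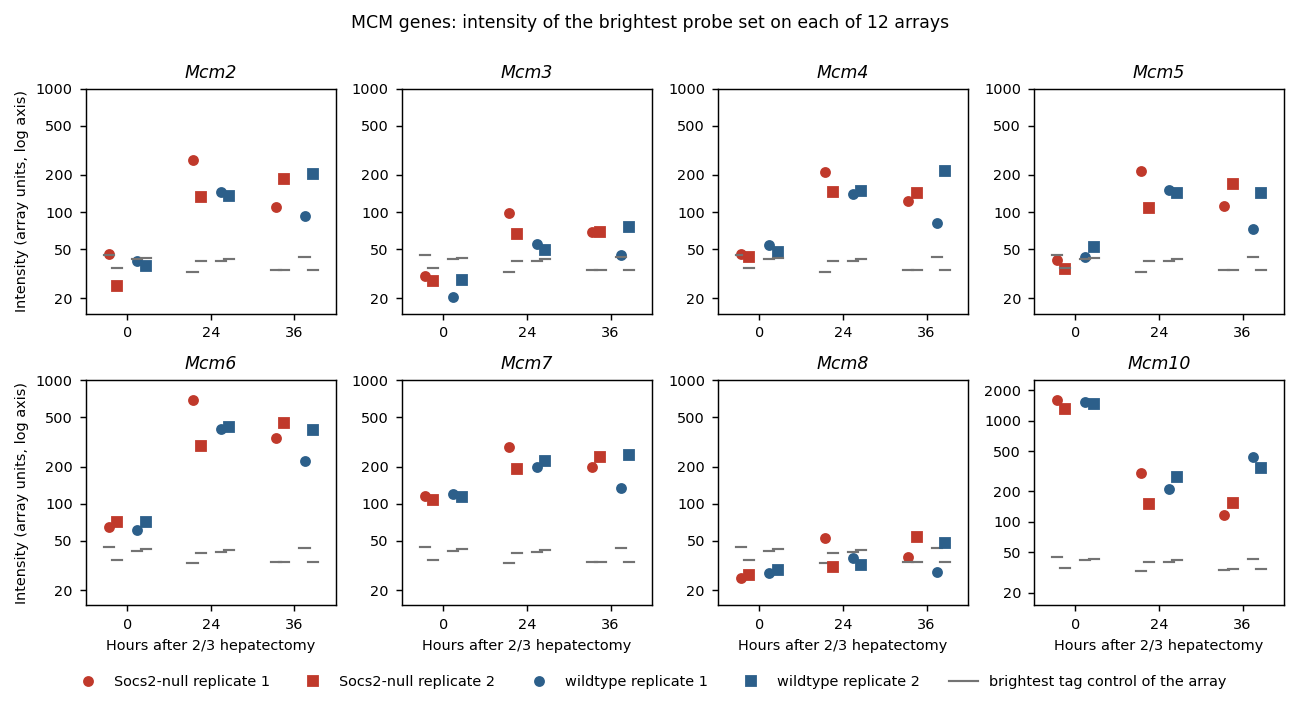
Intensity of the brightest probe set of each MCM gene on each of 12 arrays (log axis, array units) at 0, 24 and 36 h after 2/3 hepatectomy, with Socs2-null arrays left of wildtype arrays and a short grey line at each array's brightest tag control. Mcm2 to Mcm7 lie higher on all 8 arrays after hepatectomy than on the 4 arrays at 0 h, and Mcm10 lies lower on all 8.

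Mcm6 encodes a ring subunit. Its intensity was 64.2 and 71 in Socs2-null livers and 60.9 and 70.5 in wildtype livers at 0 h. At 24 h it was 687.6 and 290.7 in Socs2-null livers and 406 and 417.4 in wildtype livers, and at 36 h it was 341.2 and 450.2 in Socs2-null livers and 223.1 and 392.9 in wildtype livers. All 8 arrays after hepatectomy were above all 4 at 0 h, and the genotypes overlapped at 24 h and at 36 h. In Socs2-null livers the log2 change was 2.48 at 24 h (SE 0.348, adjusted p = 0.00118) and 2.29 at 36 h (adjusted p = 0.00192). In wildtype livers it was 2.39 at 24 h (SE 0.348, adjusted p = 0.0019) and 1.94 at 36 h (adjusted p = 0.00627). By mean the groups ran, high to low, Socs2-null 24 h (489 ± 281, SD, n = 2), wildtype 24 h (412 ± 8.06), Socs2-null 36 h (396 ± 77.1), wildtype 36 h (308 ± 120), Socs2-null 0 h (67.6 ± 4.79) and wildtype 0 h (65.7 ± 6.8). No genotype difference at one time and no difference between 36 h and 24 h within a genotype passed the test for Mcm6.

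Mcm2, another ring subunit, was read by a pair of probe sets. The brighter gave 46 and 25.4 in Socs2-null livers and 40.2 and 36.6 in wildtype livers at 0 h. It gave 261.7 and 133.1 in Socs2-null livers and 144.5 and 134.5 in wildtype livers at 24 h, then 110.8 and 186 in Socs2-null livers and 93.2 and 202 in wildtype livers at 36 h. No array after hepatectomy overlapped an array at 0 h. The log2 change in Socs2-null livers was 2.01 at 24 h (SE 0.382, adjusted p = 0.00542) and 1.66 at 36 h (adjusted p = 0.0151), with 1 of the 2 arrays at 0 h under the brightest tag control. Both wildtype arrays at 0 h were under it, so the wildtype rises are bounds: at least 2.67-fold at 24 h (adjusted p = 0.0195) and at least 2.65-fold at 36 h (adjusted p = 0.0288). The dimmer probe set also passed in all 4 comparisons and lay under the brightest tag control on all 4 arrays at 0 h, so its rises are bounds as well. They were at least 2.62-fold at 24 h and 2.37-fold at 36 h in Socs2-null livers and at least 2.22-fold and 2.02-fold in wildtype livers (adjusted p = 0.00297, 0.00518, 0.00634 and 0.0147 in this order, over all probe sets).

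Mcm4, a ring subunit with 1 probe set, had 46.1 and 43.6 in Socs2-null livers and 53.7 and 47.3 in wildtype livers at 0 h. Its values at 24 h were 210.9 and 146.2 in Socs2-null livers and 141.2 and 149.3 in wildtype livers, and those at 36 h were 123.9 and 141.4 in Socs2-null livers and 81.7 and 215.8 in wildtype livers. All 4 arrays at 0 h were below the others, and the wildtype arrays at 36 h enclosed the Socs2-null ones. In Socs2-null livers Mcm4 rose by 1.66 at 24 h (SE 0.316, adjusted p = 0.0048) and by 1.29 at 36 h (adjusted p = 0.0183) on the log2 scale. In wildtype livers it rose by 1.28 at 24 h (SE 0.316, adjusted p = 0.0167) and by 1.18 at 36 h (adjusted p = 0.0329).

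Mcm5, also a ring subunit, gave 41 and 34.9 in Socs2-null livers and 43.4 and 51.7 in wildtype livers at 0 h. The same probe set gave 215.9 and 107.8 in Socs2-null livers and 149.6 and 143.7 in wildtype livers at 24 h, and 111.5 and 167.9 in Socs2-null livers and 73.2 and 142.4 in wildtype livers at 36 h. Arrays at 0 h did not overlap the later ones. Both Socs2-null arrays at 0 h were under the brightest tag control, so its rises there are bounds, at least 3.03-fold at 24 h (adjusted p = 0.00498) and at least 2.74-fold at 36 h (adjusted p = 0.00887). In wildtype livers the log2 change was 1.36 at 24 h (SE 0.317, adjusted p = 0.0131). At 36 h it was 0.91, with a 95% interval of 0.2 to 1.61, and missed the threshold (adjusted p = 0.0834). A second Mcm5 probe set lay at 13.6 to 20, under the brightest tag control on all 12 arrays, and gives no direction.

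Mcm7, the ring subunit whose gene hosts the Mir106b cluster, had 116.1 and 107.5 in Socs2-null livers and 120.4 and 114 in wildtype livers at 0 h. At 24 h it had 290 and 189.8 in Socs2-null livers and 199.1 and 221.7 in wildtype livers, and at 36 h 197.7 and 238.9 in Socs2-null livers and 133.2 and 248.3 in wildtype livers. The lowest of the later arrays, wildtype replicate 1 at 36 h, was still above every array at 0 h. In Socs2-null livers the log2 change was 0.97 at 24 h (SE 0.246, adjusted p = 0.0156) and 0.87 at 36 h (adjusted p = 0.0294). In wildtype livers it was 0.76 at 24 h (SE 0.246, adjusted p = 0.0417) and 0.58 at 36 h (95% interval 0.037 to 1.117), where it missed the threshold (adjusted p = 0.14). The second Mcm7 probe set gave the same 4 outcomes, with log2 changes of 0.62 to 1.

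Mcm3, a ring subunit, was read by a pair of probe sets near background. Its brighter probe set had 30.2 and 27.8 in Socs2-null livers and 20.7 and 28.2 in wildtype livers at 0 h, all under the brightest tag control. It had 97.4 and 66.6 in Socs2-null livers and 55.2 and 49.7 in wildtype livers at 24 h, and 69.1 and 69 in Socs2-null livers and 44.9 and 75.4 in wildtype livers at 36 h. All 8 later arrays were above background and above the arrays at 0 h. The rises are bounds, at least 1.73-fold at 24 h (adjusted p = 0.00223) and 1.52-fold at 36 h (adjusted p = 0.00635) in Socs2-null livers. In wildtype livers they were at least 1.17-fold at 24 h (adjusted p = 0.0143) and 1.28-fold at 36 h (adjusted p = 0.011). The second Mcm3 probe set was also under the brightest tag control on all 4 arrays at 0 h. It was at least 1.54-fold higher at 24 h and 1.4-fold at 36 h in Socs2-null livers (adjusted p = 0.00275 and 0.0067, over all probe sets) and at least 1.32-fold at 24 h in wildtype livers (adjusted p = 0.016). In wildtype livers at 36 h, with 1 of the 2 arrays under background, it missed the threshold (at least 1.2-fold, adjusted p = 0.0544).

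Read against all genes, 6 of 8 MCM genes were called higher in Socs2-null livers at 24 h, where 10.8% of all genes were, and 6 of 8 at 36 h, where 9.84% were. In wildtype livers 6 of 8 were called higher at 24 h, against 10.2% of all genes, and 4 of 8 at 36 h, against 5.69%. A single member, Mcm10, was called lower in each, where 13.5% and 10.1% of all genes were in Socs2-null livers at 24 h and 36 h in turn, and 15.6% and 9.5% in wildtype livers. The median log2 change of Mcm2 to Mcm7 in Socs2-null livers was 1.65 at 24 h and 1.4 at 36 h, against -0.039 and -0.026 over all genes. In wildtype livers it was 1.32 at 24 h and 1.04 at 36 h, against -0.08 and -0.065. With genes under background at 0 h set to their bounds (2 of 6 in each comparison), these medians were 1.63 and 1.37 in Socs2-null livers and 1.32 and 1.04 in wildtype livers.

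Calls at 36 h changed when the hybridization control level of each array entered the model. With this covariate, 1 of 8 MCM genes (Mcm10) passed at 36 h in each genotype, and the log2 change of Mcm6 at 36 h was 0.54 in Socs2-null livers (adjusted p = 0.573) and 0.13 in wildtype livers (adjusted p = 0.927). At 24 h 3 of 8 passed in Socs2-null livers (Mcm3, Mcm6 and Mcm10) and 6 of 8 in wildtype livers, where Mcm7 did not. The level of these controls followed time in both genotypes, with no overlap between 0 h and 36 h. Control level and time can therefore not be told apart in the comparisons of 36 h with 0 h. Single arrays also decided calls. At 24 h in wildtype livers 7 of 8 MCM genes passed. This number was 2 when either replicate at 24 h or replicate 1 at 0 h was left out by itself, and 3 when replicate 2 at 0 h was. At 36 h in Socs2-null livers 7 passed, and this number was 2 when replicate 2 at 0 h was left out and 3 when replicate 2 at 36 h was. At 36 h in wildtype livers 5 passed, and this number was 2 when replicate 2 at 36 h was left out, 1 when replicate 1 at 0 h was and 3 when replicate 2 at 0 h was. Leaving out any 1 array, Mcm2 to Mcm7 stayed higher after hepatectomy in all 4 comparisons, and Mcm6 lost its call in 1 case, for wildtype livers at 36 h when replicate 1 at 0 h was left out (adjusted p = 0.052).

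**Figure D2:**
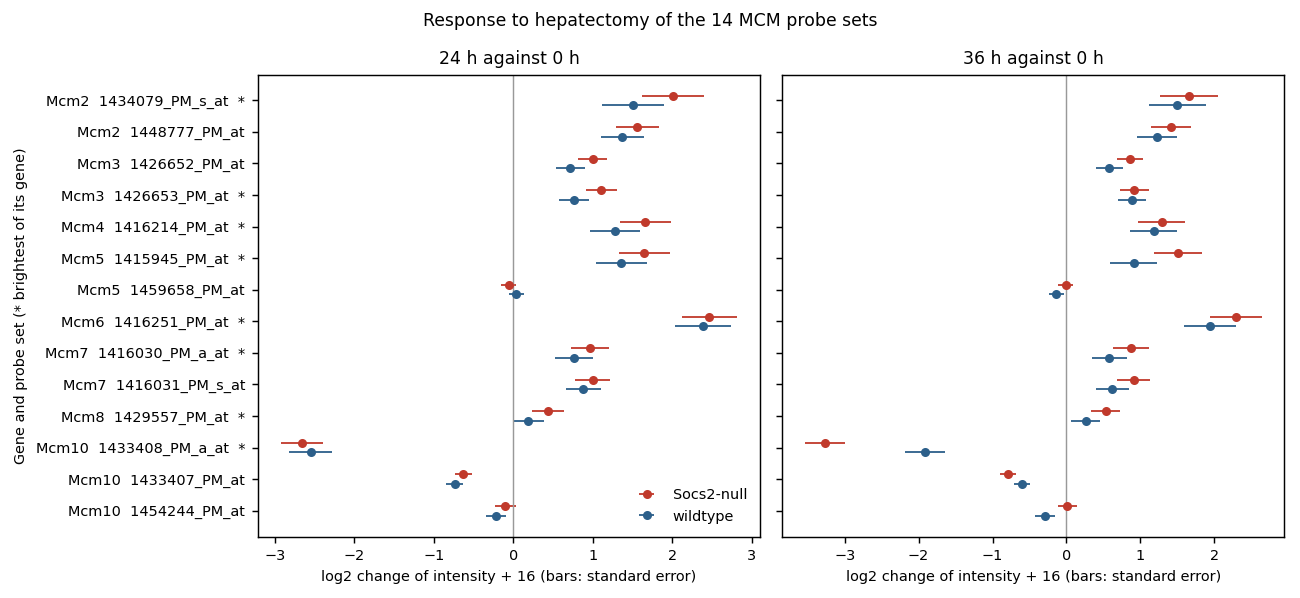
Log2 change of intensity + 16 against 0 h, at 24 h (left) and 36 h (right), for all 14 MCM probe sets, with the standard error of the fit as bars, Socs2-null above wildtype, and a star at the brightest probe set of each gene. Other than the second Mcm5 probe set, the probe sets of Mcm2 to Mcm7 lie right of 0, and the brightest Mcm10 probe set lies far left of it, at -2.66 and -3.27 in Socs2-null and -2.55 and -1.92 in wildtype livers.

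Mcm8, which encodes a relative of the ring subunits known for DNA repair by homologous recombination, stayed near background. It had 25.1 and 26.5 in Socs2-null livers and 27.5 and 28.8 in wildtype livers at 0 h. It had 53.2 and 30.5 in Socs2-null livers and 36.5 and 32.1 in wildtype livers at 24 h, and 36.8 and 53.4 in Socs2-null livers and 27.8 and 47.7 in wildtype livers at 36 h. All 4 arrays at 0 h were under the brightest tag control, as were both wildtype arrays at 24 h and 1 array each of Socs2-null 24 h and wildtype 36 h. Both arrays of Socs2-null 36 h were above it, and the bound of the rise was at least 1.08-fold there and at least 1.01-fold in Socs2-null livers at 24 h. The adjusted p was 0.147 at 24 h and 0.0975 at 36 h in Socs2-null livers and 0.535 and 0.434 in wildtype livers, where the arrays were too close to background to give a bound. Mcm8 thus missed the threshold in all 4 comparisons, which does not show that it did not change. In Socs2-null livers at 36 h it passed with array weights (adjusted p = 0.0481), with only the arrays compared (0.0467) and when either Socs2-null array at 24 h was left out (0.0443 and 0.0444). With the hybridization control covariate its log2 change there was -0.37 (adjusted p = 0.595). At 24 h it passed without replicate 2 of the Socs2-null livers at 24 h (adjusted p = 0.0378).

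Mcm10, the activation factor, was read by 3 probe sets. The brightest had 1589.8 and 1287 in Socs2-null livers and 1531.1 and 1465.5 in wildtype livers at 0 h. It had 301.5 and 148.9 in Socs2-null livers and 211.3 and 278.1 in wildtype livers at 24 h, then 116.1 and 154.3 in Socs2-null livers and 434.3 and 337.5 in wildtype livers at 36 h. All 8 arrays after hepatectomy lay below all 4 at 0 h. In Socs2-null livers it fell by 2.66 at 24 h on the log2 scale (SE 0.274, adjusted p = 0.000193) and its log2 change at 36 h was -3.27 (adjusted p = 5.77e-05). In wildtype livers it fell by 2.55 at 24 h (SE 0.274, adjusted p = 0.000358) and by 1.92 at 36 h (adjusted p = 0.00166). The 4 falls passed with every array left out in turn and with the hybridization control covariate.

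Another Mcm10 probe set also separated the times. It had 60 and 57.4 in Socs2-null livers and 62.3 and 55.9 in wildtype livers at 0 h. Its values ran from 25.3 to 35.2 on the 8 later arrays, under the brightest tag control of each. The falls are bounds, at least 1.42-fold at 24 h and 1.5-fold at 36 h in Socs2-null livers and at least 1.31-fold at 24 h and 1.38-fold at 36 h in wildtype livers (adjusted p = 0.00184, 0.000557, 0.00101 and 0.00376 in this order, over all probe sets). The remaining Mcm10 probe set lay at 20.6 to 31.8, under the brightest tag control on all 12 arrays. Mcm10 thus had 2 probe sets that fell and none that rose, while 9 of the 10 probe sets of Mcm2 to Mcm7 were higher after hepatectomy. The 2 that fell are annotated to the same source sequence, as are the 2 of Mcm3 and the 2 of Mcm7. Probe sets of such a pair are not independent readings of their gene. Whether the bright Mcm10 probe set reads the Mcm10 transcript was not tested.

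No MCM gene passed the threshold between Socs2-null and wildtype livers at any time. At 0 h 0 of 8 were called, as were 0% of all genes, and 0 of 8 had an unadjusted p under 0.05. At 24 h 0 of 8 genes were called, as were 0.0117% of all genes, and 1 of 8 (Mcm3) had an unadjusted p under 0.05. At 36 h 0 of 8 were called, as were 0.0234% of all genes, and again 1 of 8 (Mcm10) had an unadjusted p under 0.05. Averaged over the times 0 of 8 were called, against 0.0292% of all genes, with an unadjusted p under 0.05 for Mcm3 and Mcm10. Plain eBayes, quantile normalization and array weights also gave 0 of 8 in each of these.

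**Figure D3:**
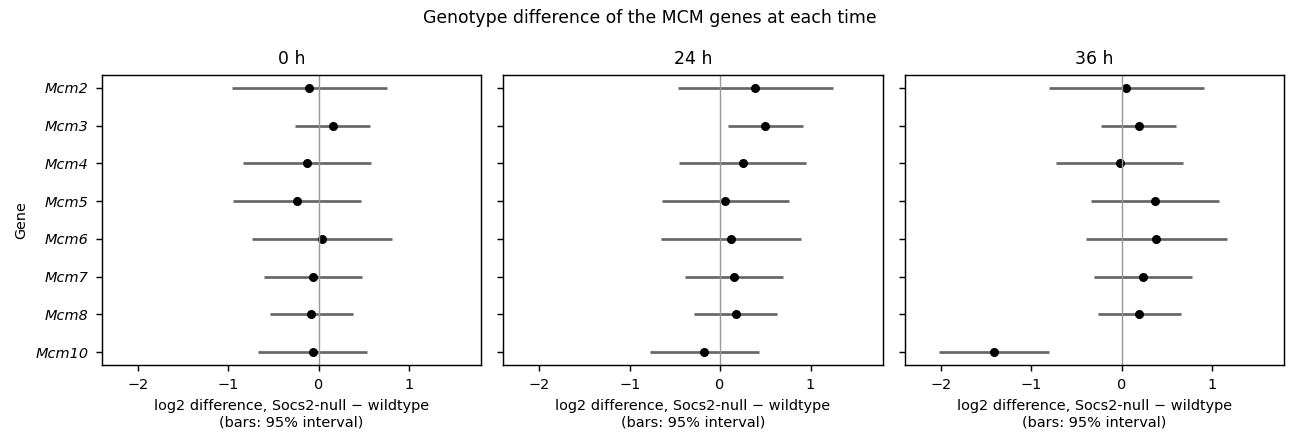
Difference in log2(intensity + 16), Socs2-null minus wildtype, of the 8 MCM genes at 0, 24 and 36 h (points) with 95% intervals of the limma fit (bars). Most intervals span 0, and those that leave it out are Mcm3 at 24 h (0.085 to 0.915) and Mcm10 at 36 h (-2.016 to -0.807), neither of which passed after adjustment.

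Mcm3 was higher on both Socs2-null arrays than on both wildtype arrays at 24 h, by 0.5 on the log2 scale (SE 0.189, 95% interval 0.085 to 0.915, unadjusted p = 0.0224), and missed the threshold (adjusted p = 0.532, 0.14 to 0.932 over the alternatives). The second Mcm3 probe set, above background in both genotypes at 24 h, did not separate them: it had 80.7 and 60.8 in Socs2-null livers, against 59.6 and 62.5 in wildtype livers, and a log2 difference of 0.16 (adjusted p = 0.829, over all probe sets). Averaged over the times the difference was 0.28 for the brighter probe set (adjusted p = 0.416) and 0.07 for the second (adjusted p = 0.865), and this average includes 0 h, where both genotypes were under background. Arrays of 1 of the 8 MCM genes (Mcm3, higher in Socs2-null livers) did not overlap between genotypes at 24 h, as those of 34.2% of all genes did not. At 36 h this held for 1 of 8 (Mcm10, lower), against 32.9% of all genes, and at 0 h for 3 of 8 (Mcm4, Mcm5 and Mcm8, all lower), against 41.8%. These shares of all genes count either direction, and the members' share was below them in each case. By direction, 15% of all genes were higher without overlap at 24 h, 17.6% lower at 36 h and 27.9% lower at 0 h. The members' share was above the share by direction at 0 h alone. There Mcm8 was under background in both genotypes and Mcm5 in Socs2-null livers. For the brightest probe sets of the other ring genes at 24 h the difference ran from 0.06 for Mcm5 (95% interval -0.647 to 0.765) to 0.39 for Mcm2 (95% interval -0.469 to 1.246). The second probe sets of Mcm2 and Mcm7 differed by 0.18 and -0.01 at 24 h. At 36 h it ran from -0.02 for Mcm4 (95% interval -0.724 to 0.683) to 0.38 for Mcm6 (95% interval -0.392 to 1.16), and the arrays of all 6 ring genes overlapped between genotypes. These intervals allow differences of more than 1.5-fold in either direction for Mcm2, Mcm4, Mcm5 and Mcm6 at 36 h or at 24 h, so like levels are not shown.

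Mcm10 at 36 h had the widest genotype gap of the 8. Its brightest probe set had 116.1 and 154.3 in Socs2-null livers, against 434.3 and 337.5 in wildtype livers. The arrays did not overlap, and the log2 difference was -1.41 (SE 0.274, 95% interval -2.016 to -0.807, unadjusted p = 0.000342), but it missed the threshold over 17097 genes (adjusted p = 0.274). This adjusted p ran from 0.0114 to 0.861 over the alternatives. It passed with the hybridization control covariate (log2 difference -1.44, adjusted p = 0.0114) and when either Socs2-null array at 24 h was left out by itself (adjusted p = 0.029 and 0.0291), though these arrays are outside the comparison. Both other Mcm10 probe sets were under the brightest tag control in both genotypes at 36 h and give no comparison.

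No MCM gene passed the threshold between 36 h and 24 h. Of the members, 0 of 8 were called in Socs2-null livers, where 0.00585% of all genes were, and 0 of 8 in wildtype livers, where 0.24% were. The fitted log2 changes of Mcm2 to Mcm7 ran from -0.37 to -0.11 in Socs2-null livers and from -0.45 to 0.13 in wildtype livers. Mcm10 had a log2 change of -0.61 at 36 h against 24 h in Socs2-null livers (adjusted p = 0.69) and of 0.63 in wildtype livers (adjusted p = 0.316). The genotypes did not differ by the threshold in their response at 24 h (0 of 8 called, against 0% of all genes) or at 36 h (0 of 8 called, against 0.00585%). For Mcm10 the response at 36 h differed by -1.35 on the log2 scale, Socs2-null minus wildtype (unadjusted p = 0.00538, adjusted p = 0.999).

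The 2 pools of a group could differ in the same direction for all of Mcm2 to Mcm7. In Socs2-null livers at 24 h replicate 1 was above replicate 2 for 6 of 6 ring genes, by 0.46 to 1.2 on the log2 scale (median 0.73). Over all genes the median size of this difference was 0.17, and 95% lay under 0.65. In wildtype livers at 36 h replicate 1 was below replicate 2 for 6 of 6, by 0.59 to 1.25, where the 95% limit of all genes was 0.55. In the other groups the sizes were 0 to 0.67 in Socs2-null livers at 36 h, 0.04 to 0.14 in wildtype livers at 24 h, 0.06 to 0.58 in Socs2-null livers at 0 h and 0.07 to 0.27 in wildtype livers at 0 h. Mcm4 had the widest gap, 81.7 against 215.8 in the wildtype pools at 36 h.

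**Figure D4:**
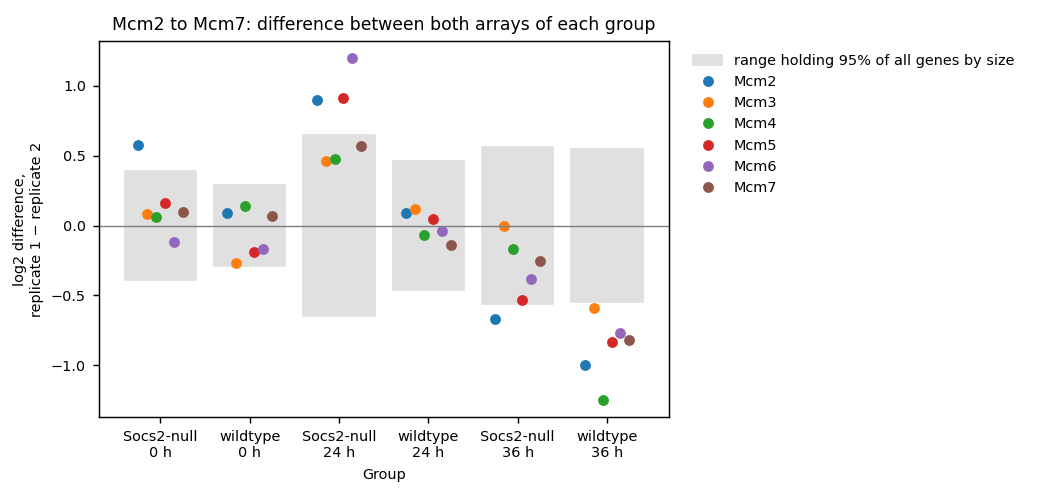
Log2 difference of replicate 1 minus replicate 2 for Mcm2 to Mcm7 in each of the 6 groups, with the grey band holding 95% of all genes by size. All 6 ring genes lie above 0 in Socs2-null livers at 24 h and below the band in wildtype livers at 36 h.

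Some cell type marker lists differed between the same pools, others differed little, and gaps were not confined to these pools. In Socs2-null livers at 24 h the neutrophil markers summed to 327.5 in replicate 1 and 1719 in replicate 2, and the 9 Kupffer cell and macrophage markers to 7266 and 5212. The hepatocyte markers there summed to 62614 and 65715 and the sinusoidal endothelium markers to 2627 and 2750. In wildtype livers at 36 h the 7 stellate cell markers summed to 3517 in replicate 1 and 2455 in replicate 2. The Kupffer cell and macrophage markers there summed to 6190 and 6123. In Socs2-null livers at 36 h the latter summed to 5925 and 8028. The 8 measured origin licensing genes, which are not cell type markers, summed to 805.6 and 1187 in wildtype livers at 36 h. The part of these gaps in the MCM values was not tested. Without Socs2-null 24 h replicate 1 the genotype difference of Mcm6 at 24 h was -0.48, and without replicate 2 it was 0.72. Leaving out wildtype 36 h replicate 1 took it at 36 h to 0, and leaving out replicate 2 to 0.77. The pools of a group thus set the sign of the genotype difference for Mcm2, Mcm5, Mcm6 and Mcm7 at 24 h and for all 6 ring genes at 36 h. The 7 sinusoidal endothelium markers summed to 1980 to 2403 on the 4 arrays at 36 h. This was below the 2627 to 3115 on the 8 arrays at 0 h and 24 h. One by one, the markers did not move together at 36 h against 0 h. In Socs2-null livers 1 was called higher and 2 lower (14.3% and 28.6%, against 9.84% and 10.1% of all genes). Wildtype livers had 1 higher and 1 lower (14.3% each, against 5.69% and 9.5% of all genes). Their median log2 change was 0.03 in Socs2-null and -0.27 in wildtype livers. The part of the gap in summed intensity in the MCM values at 36 h was not tested. Over the 12 arrays the 4 measured cholangiocyte markers summed to 281 to 354.7 and the 6 measured lymphocyte markers to 360.8 to 427.7.

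Genes that work with the ring were followed as lists. Of 37 genes listed for licensing, helicase assembly, origin firing, other MCM-named genes and the E2F family, 35 were measured. In Socs2-null livers 11 rose and 5 fell at 24 h, and 8 rose and 4 fell at 36 h. In wildtype livers 8 rose and 3 fell at 24 h, and 6 rose and 2 fell at 36 h. As shares of the 35, those that rose were 31.4% at 24 h and 22.9% at 36 h in Socs2-null livers (10.8% and 9.84% of all genes) and 22.9% and 17.1% in wildtype livers (10.2% and 5.69% of all genes). Those that fell were 14.3% and 11.4% in Socs2-null livers, close to the 13.5% and 10.1% of all genes, and 8.6% and 5.7% in wildtype livers, below the 15.6% and 9.5% of all genes. Some pathway genes were under background on both arrays at 0 h: 9 of the 35 in Socs2-null livers and 8 in wildtype livers. Their fitted changes, which enter the counts and medians below, are then no measure of size, and bounds are given for those named. No pathway gene was called between the genotypes at 24 h or at 36 h.

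**Figure D5:**
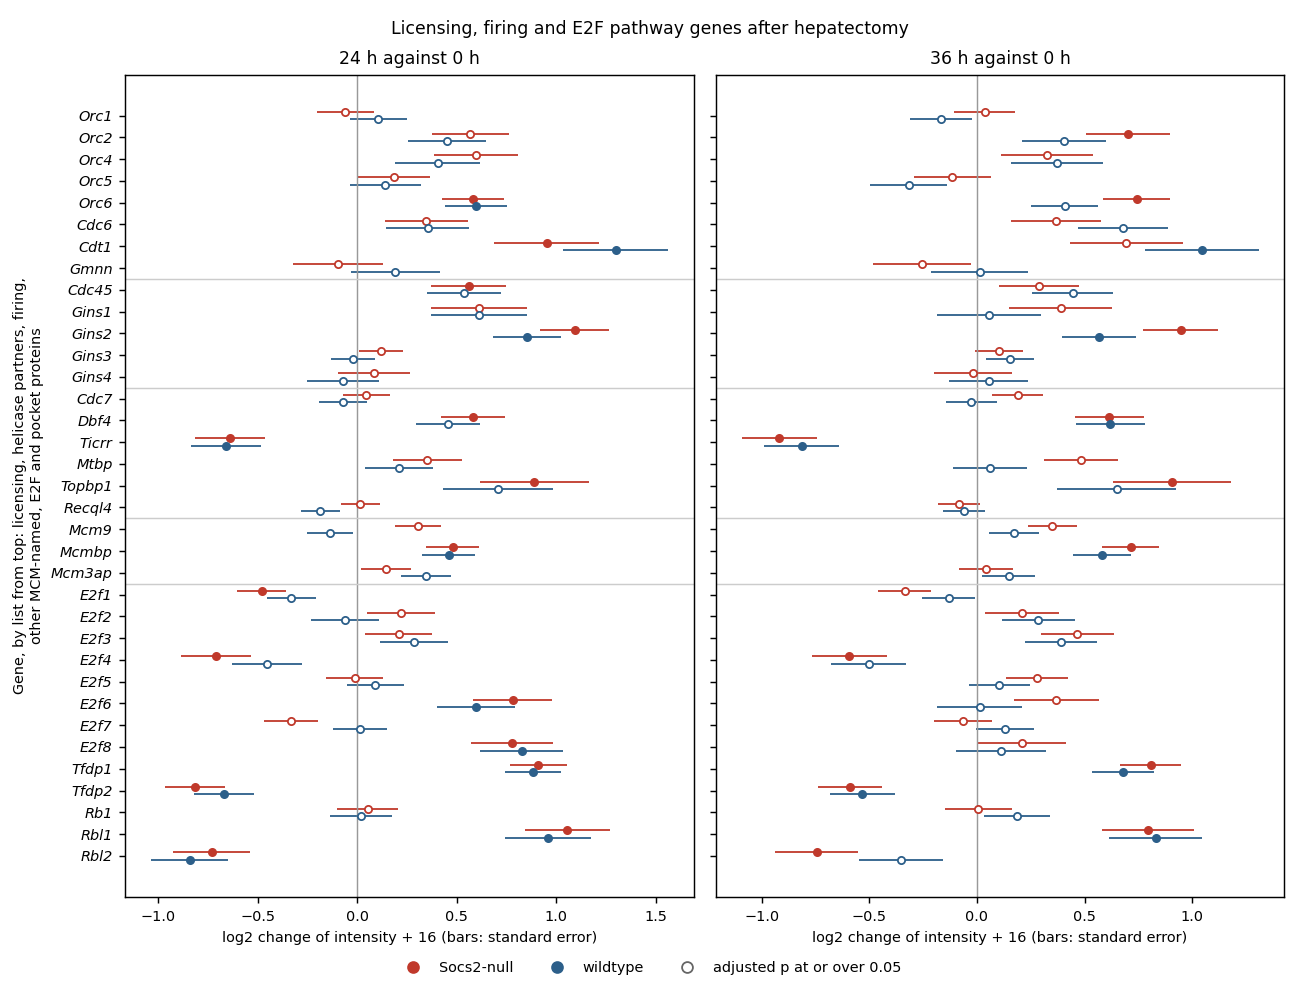
Log2 change of intensity + 16 against 0 h at 24 h (left) and 36 h (right) of the 35 measured pathway genes, grouped by list, with standard errors as bars, Socs2-null above wildtype, and open points where the adjusted p is at or over 0.05. Filled points to the right include Gins2, Mcmbp, Tfdp1 and Rbl1 at both times in both genotypes, and filled points to the left Ticrr and Tfdp2.

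Among 8 measured licensing genes, 2 rose at 24 h in Socs2-null livers and 2 in wildtype livers, and none fell, with median log2 changes of 0.46 and 0.38. At 36 h 2 rose in Socs2-null livers and 1 in wildtype livers, with medians of 0.35 and 0.39. Those that rose were 25% of the list at 24 h in each genotype, against 10.8% of all genes in Socs2-null and 10.2% in wildtype livers. At 36 h they were 25% in Socs2-null and 12.5% in wildtype livers, against 9.84% and 5.69% of all genes. No licensing gene fell, where 9.5% to 15.6% of all genes were called lower. Cdt1, which loads the ring, changed by 0.95 and 0.7 in Socs2-null livers at 24 h and 36 h (adjusted p = 0.0241 and 0.0896) and by 1.3 and 1.04 in wildtype livers (adjusted p = 0.00653 and 0.0241). Orc6, a subunit of the origin recognition complex, rose at 24 h by 0.58 in Socs2-null and 0.6 in wildtype livers, and at 36 h by 0.74 in Socs2-null livers, with 0.41 in wildtype livers (adjusted p = 0.102). Orc2, of the same complex, passed in Socs2-null livers at 36 h alone (log2 change 0.7, adjusted p = 0.0275), and Cdc6, the partner of Cdt1 in loading, passed in none and was under background on all arrays but 1.

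Of the 5 helicase partners, 2 rose in Socs2-null livers at 24 h and 1 in each of the other comparisons with 0 h, and none fell. The medians were 0.56 at 24 h and 0.29 at 36 h in Socs2-null livers and 0.54 and 0.15 in wildtype livers. Those that rose were 40% of the list in Socs2-null livers at 24 h and 20% in the other comparisons. Of all genes, 5.69% to 10.8% were called higher and 9.5% to 15.6% lower. Gins2, a GINS subunit with 1 Socs2-null array at 0 h under background, rose in all 4, by 1.09 and 0.95 in Socs2-null livers and by 0.85 and 0.57 in wildtype livers at 24 h and 36 h. Cdc45, under background on all 4 arrays at 0 h, passed in Socs2-null livers at 24 h (at least 1.27-fold, adjusted p = 0.0499) and missed in the others (adjusted p = 0.0553 to 0.315). Gins3 and Gins4, the other subunits named by the rule, had log2 changes of -0.07 to 0.15 and passed in none.

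Of 6 origin firing genes, 2 rose and 1 fell in Socs2-null livers at 24 h and at 36 h (medians 0.2 and 0.34). In wildtype livers 0 rose and 1 fell at 24 h, and 1 rose and 1 fell at 36 h (medians 0.07 and 0.02). The 1 that fell is 16.7% of the list, where 9.5% to 15.6% of all genes were called lower, so this count says nothing particular to the list. Those that rose were 33.3% at both times in Socs2-null livers, and 0% at 24 h and 16.7% at 36 h in wildtype livers. Of all genes, 5.69% to 10.8% were called higher. Ticrr, which brings Cdc45 to the loaded ring, fell in all 4 comparisons, by 0.64 and 0.92 in Socs2-null livers and by 0.66 and 0.81 in wildtype livers. Dbf4, the activator of the Cdc7 kinase that phosphorylates the ring, rose in Socs2-null livers at both times (0.58 and 0.62) and in wildtype livers at 36 h (0.62), with 0.45 at 24 h (adjusted p = 0.0569). Topbp1, a scaffold of firing, rose in Socs2-null livers at both times (0.89 and 0.91), with 0.71 and 0.65 in wildtype livers (adjusted p = 0.0831 and 0.142). Recql4, a helicase of the firing step, was under background on all 4 arrays at 0 h and passed in none.

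Mcmbp, which binds MCM subunits, rose in all 4 comparisons, by 0.48 and 0.71 in Socs2-null livers and by 0.46 and 0.58 in wildtype livers. It was the 1 of 3 measured other MCM-named genes to pass in each, with list medians of 0.31 and 0.35 in Socs2-null livers and 0.35 and 0.17 in wildtype livers. This is 33.3% of the list, where 5.69% to 10.8% of all genes were called higher. Mcm9, the partner of Mcm8, was under background on all 4 arrays at 0 h and missed the threshold, at least 1.09-fold and 1.13-fold higher in Socs2-null livers (adjusted p = 0.0728 and 0.052), with adjusted p = 0.396 and 0.339 in wildtype livers. Mcm3ap, named for binding Mcm3, had 0.14 and 0.04 in Socs2-null livers and 0.35 and 0.15 in wildtype livers, and passed in none.

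Of 13 E2F factors, their partners and the pocket proteins, 4 rose and 4 fell in Socs2-null livers at 24 h and 2 rose and 3 fell at 36 h. In wildtype livers 4 rose and 2 fell at 24 h and 2 rose and 1 fell at 36 h. Those that fell were 30.8% and 23.1% of the list in Socs2-null livers, against 13.5% and 10.1% of all genes, and 15.4% and 7.7% in wildtype livers, against 15.6% and 9.5%. Those that rose were 30.8% at 24 h and 15.4% at 36 h in each genotype. Of all genes, 10.8% and 9.84% were called higher at these times in Socs2-null livers and 10.2% and 5.69% in wildtype livers. The list medians were 0.05 and 0.21 in Socs2-null livers and 0.02 and 0.11 in wildtype livers. Tfdp1, the dimer partner of E2F factors, rose in all 4 comparisons, by 0.91 and 0.81 in Socs2-null livers and by 0.88 and 0.68 in wildtype livers. Its relative Tfdp2 fell in all 4, by 0.82 and 0.59 in Socs2-null livers and by 0.67 and 0.53 in wildtype livers. Rbl1, the pocket protein p107, rose in all 4 and was under background on all 4 arrays at 0 h, so its rises are bounds, at least 1.69-fold and 1.41-fold in Socs2-null livers and at least 1.34-fold and 1.23-fold in wildtype livers. E2f4, a factor known mainly for repression, fell in Socs2-null livers at both times (0.71 and 0.59), with -0.46 and -0.5 in wildtype livers (adjusted p = 0.0784 and 0.0782). E2f8 and E2f6 rose at 24 h, by 0.78 each in Socs2-null livers and by 0.83 and 0.6 in wildtype livers. E2f1 fell in Socs2-null livers at 24 h (-0.48, adjusted p = 0.0163), with -0.33 in wildtype livers (adjusted p = 0.0681). Rbl2 fell in Socs2-null livers at both times (-0.73 and -0.75) and in wildtype livers at 24 h (-0.84).

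The ring genes varied together over the 12 arrays. Pearson's r of each with the mean of the standardized values of Mcm2 to Mcm7, which includes it, was 0.962 for Mcm3 and 0.984 to 0.989 for the others. Mcm8 had 0.851, and the brightest Mcm10 probe set -0.859. The 5 genes outside the members with the highest r were Chek1, the checkpoint kinase (0.988), Smc2, a condensin subunit (0.983), Rbl1 (0.982), Cdc42bpa (0.974) and Rbbp7, a histone-binding chaperone subunit (0.972). These are descriptions over 12 arrays of 6 groups that share the time after hepatectomy, and carry no test. Chek1 had 68.9 ± 23.8 in Socs2-null and 58.5 ± 5.31 in wildtype livers at 24 h, and 59.5 ± 5.89 in Socs2-null and 52.7 ± 20 in wildtype livers at 36 h (SD, n = 2 each). At 0 h it had 17.5 ± 5.49 in Socs2-null and 22.8 ± 2.16 in wildtype livers, under the brightest tag control on all 4 arrays. For the brightest Mcm10 probe set, a list chosen after its values were seen, the closest genes were Dera (0.989), Acads (0.987), Dio1 (0.987), Keg1 (0.986) and B830008H07Rik (0.986). Acads encodes a mitochondrial fatty acid oxidation enzyme and Dio1 the liver deiodinase that activates thyroid hormone.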

How the data were processed

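Liver RNA of 12 pools was read on Affymetrix arrays, 2 per group, with 10 micrograms of total RNA pooled from 3 animals made into biotin-labelled cRNA, per the labels' protocols. The authors deposited 1 processed intensity per probe set and array, on a linear scale, in a table of 45141 probe sets. How they corrected background, summarized probes and normalized is not given in the sources used here, and no further scaling was applied. Array medians were 43.5 to 52.3. The number of arrays limits the precision.

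The members and lists were chosen with earlier results of these data known. Probe sets with 1 gene in the platform annotation were kept, and each gene took its probe set with the highest mean log2(value + 16). All 17097 genes were fitted with 6 group means, which leaves 6 residual degrees of freedom, in limma 3.58.1 (eBayes with trend and robust, statmod 1.5.0, R 4.3.3). Each of 12 comparisons was two-sided, with p-values adjusted over the 17097 genes by Benjamini-Hochberg and a threshold of 0.05. A group was under background where all its arrays lay under their brightest tag control. Folds against such a group are bounds, the ratio of mean value + 16 to the higher of that control and the probe set's own value. The bounds carry no sampling error, and the p-values beside them are those of the unbounded fit.

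Text names all members, from each of 5 pathway lists up to 4 genes with the smallest p in wildtype livers at 36 h against 0 h, and the 5 genes closest in pattern to Mcm2 to Mcm7. Other genes of the E2F list with a call against 0 h are named as well. The 5 genes closest to the brightest Mcm10 probe set were added after its values were seen. Listed genes that are not analysed here include Orc3, Mcmdc2, Spp1 and Ly6g. Promoters, gene positions and overlaps came from RefSeq tables of GRCm38.p6, and figures from Python 3.11.15 and matplotlib 3.10.9. Alternatives changed the pseudocount (1 or 64), the filter on dim genes, normalization, scaling, probe set rule, variance model, samples in the fit and replicate block, and left out each array in turn.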

Additional observations from a re-analysis of the deposited data

How the results depend on the processing

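The time responses of the ring genes kept their sign under most alternatives, but some calls depended on single arrays. Of 304 values of Mcm2 to Mcm7 against 0 h under the alternatives other than the hybridization control covariate and arrays left out, 300 stayed on their side of the threshold, 3 lost their call and 1 gained one. With 1 array left out, 238 of 288 stayed on their side, 46 lost their call and 4 gained one, and all kept their direction, with fewer arrays in the fit. All 4 falls of Mcm10 kept their call under each alternative run.

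The labels state no pairing by replicate number. Over 15 pairs of groups the deviations correlated between -0.5 and 0.35, over 0.1 in 3, which does not settle whether some samples were paired. With the replicate block Mcm7 at 24 h in wildtype livers lost its call (adjusted p = 0.0556), leaving 6 of 8 MCM genes called there, and no other MCM call changed. Without _x_, _s_ and _a_ probe sets Mcm7 has no value.

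With the hybridization control covariate the number of MCM genes called was 3 at 24 h and 1 at 36 h in Socs2-null livers, 1 at 36 h in wildtype livers, and 1 between genotypes at 36 h and 1 averaged over times, which was Mcm10 in both. It turned the log2 change at 36 h to -0.1 (Mcm2), -0.05 (Mcm5), -0.29 (Mcm7) and -0.37 (Mcm8) in Socs2-null livers, and to -0.33 (Mcm2), -0.71 (Mcm5), -0.63 (Mcm7) and -0.68 (Mcm8) in wildtype livers. In wildtype livers it also turned Mcm8 at 24 h to -0.04 and Mcm10 at 36 h against 24 h to -0.48. The genotype difference at 24 h became -0.12 (Mcm2), -0.07 (Mcm4), -0.39 (Mcm5), -0.39 (Mcm6), -0.19 (Mcm7) and -0.09 (Mcm8). At 24 h it was -0.07 for Mcm5 over the mean of all probe sets and 0.1 for Mcm10 without _x_, _s_ and _a_ probe sets, and at 36 h 0.01 for Mcm4 after centring on array medians. The control levels at 36 h did not overlap those at 0 h, so for these 2 times the covariate and time cannot be told apart. The cause of the changed values was not tested.

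Leaving out each array in turn, the MCM genes called ranged from 2 to 7 in wildtype livers at 24 h, from 1 to 7 at 36 h, from 2 to 8 in Socs2-null livers at 36 h, and from 0 to 1 between genotypes at 36 h. The log2 change of Mcm8 in wildtype livers at 36 h ranged from -0.01 to 0.53. Genotype differences at 24 h ranged from -0.06 to 0.84 (Mcm2), -0.39 to 0.51 (Mcm5), -0.48 to 0.72 (Mcm6), -0.14 to 0.44 (Mcm7), -0.11 to 0.46 (Mcm8) and -0.65 to 0.3 (Mcm10). At 36 h they ranged from -0.45 to 0.55 (Mcm2), -0.1 to 0.48 (Mcm3), -0.64 to 0.6 (Mcm4), -0.05 to 0.78 (Mcm5), 0 to 0.77 (Mcm6), -0.18 to 0.65 (Mcm7) and -0.07 to 0.47 (Mcm8). Signal over background limits Mcm8, Mcm3 at 0 h and all but the brightest Mcm10 probe set.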
